A study of Mus musculus with 12 samples.

Results

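The 7 Ugt2b genes described here, Ugt2b1, Ugt2b5, Ugt2b34, Ugt2b35, Ugt2b36, Ugt2b37 and Ugt2b38, encode UDP-glucuronosyltransferases and were read by 1 probe each on arrays that gave values for 23239 genes or transcripts. They were chosen because most of them had been seen to be lower in the colon of knockout mice than of wild-type (WT) mice in these data, so the comparison of genotypes below is a description and carries no test. Probes were assigned to genes by their transcript accession, and all 7 genes were found. RNA of colon from male C57BL/6J mice was hybridised with a single green dye to 12 Agilent oligonucleotide arrays. The groups were ATF6aKO (Atf6 knockout) with dextran sulfate sodium (DSS), ATF6aKO untreated (UT), ATF6bKO (Atf6b knockout) with DSS, ATF6bKO UT, and 2 WT groups, each with 2 arrays. DSS, which damages the lining of the colon and is widely used to induce colitis in mice, was given in drinking water at 3% for 3 days. ATF6a and ATF6b are transcription factors held in the membrane of the endoplasmic reticulum (ER) until unfolded proteins accumulate. The labels give neither the age of the mice nor how the knockouts were made. Nor do they say that both arrays of a group are from different mice, and p-values therefore reflect sample-to-sample spread that could be purely technical.

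UDP-glucuronosyltransferases sit in the ER membrane and join glucuronic acid, taken from UDP-glucuronate, to steroids, bile acids, fatty acids and drugs. The products are water-soluble and leave the cell through exporters. The Ugt2b enzymes are best known from liver, and in the gut wall the family acts on compounds taken up from the lumen or brought by the blood.

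The titles of the 4 WT samples contradict their treatment labels. The WT groups were therefore named by title as titled DSS and titled UT, and differences between knockout and WT were taken over all 4 WT arrays, which does not depend on the reading. Each genotype was hybridised on 1 slide of its own with its own scan, so genotype, slide and scan cannot be told apart. DSS and UT of a genotype shared a slide. Per the array headers, the WT slide also had another version of the array design than the 2 knockout slides. Knockout against WT therefore cannot be told apart from design version either. The accession of 5471 of 41174 probes differed between the versions. The targeted genes bore out the genotype labels. Atf6 averaged -3.14 in ATF6aKO, 0.997 in ATF6bKO and 0.78 in WT, and Atf6b averaged -6.47 in ATF6bKO, -0.03 in ATF6aKO and -0.38 in WT, with 4 arrays per genotype. Levels throughout are log2 signals minus the log2 75th percentile of the array, so that a level of 0 is the signal of a probe at the 75th percentile. Between 65.5% and 76.3% of probes per array were well above background. The lowest level at which a probe counted as well above background was -6.10 to -6.02 on ATF6aKO arrays, -5.85 to -5.40 on ATF6bKO arrays and -6.68 to -5.69 on WT arrays. The number of arrays, not counting error, limits the precision.

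The genes lie side by side on chromosome 5 in the order Ugt2b34, Ugt2b1, Ugt2b35, Ugt2b36, Ugt2b5, Ugt2b37 and Ugt2b38, with Ugt2a3 as the 1 other protein-coding gene between the first and the last, per the RefSeq gene table. The sequences below are shown because Ugt2b5, Ugt2b36, Ugt2b37 and Ugt2b38 shared promoter letters. These were the members furthest below WT in the knockouts, and each was well above background on all WT arrays. The window of Ugt2b1, which is not printed, holds neither of the stretches in capitals. Each is the RefSeq window from 250 bases before to 50 bases after the gene's start, build GRCm38.p6, read 5′ to 3′ on the gene's own strand. Capitals mark a 22-base run common to Ugt2b5, Ugt2b36, Ugt2b37 and Ugt2b38 and, upstream of it, matches to GTTATANTTTAAC, where N is any base, the longest stretch with 1 free base that at least 5 of the 7 windows hold. The windows are chr5:87140291-87140590 for Ugt2b5, chr5:87092506-87092805 for Ugt2b36, chr5:87254739-87255038 for Ugt2b37 and chr5:87424154-87424453 for Ugt2b38, all on the minus strand. For comparison, Ugt2b35 is at chr5:87000610-87000909 on the plus strand and Ugt2b34 at chr5:86906888-86907187 on the minus strand.
Ugt2b5: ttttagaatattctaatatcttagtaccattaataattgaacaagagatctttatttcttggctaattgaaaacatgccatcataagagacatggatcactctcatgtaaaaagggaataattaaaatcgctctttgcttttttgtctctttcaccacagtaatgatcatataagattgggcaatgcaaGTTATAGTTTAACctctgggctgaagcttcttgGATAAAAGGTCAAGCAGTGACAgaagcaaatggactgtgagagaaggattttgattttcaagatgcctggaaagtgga
Ugt2b36: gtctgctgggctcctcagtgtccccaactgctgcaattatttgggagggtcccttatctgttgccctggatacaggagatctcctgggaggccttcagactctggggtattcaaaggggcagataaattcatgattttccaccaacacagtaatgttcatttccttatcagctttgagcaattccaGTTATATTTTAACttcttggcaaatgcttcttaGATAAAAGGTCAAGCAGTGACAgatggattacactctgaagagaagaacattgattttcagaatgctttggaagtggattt
Ugt2b37: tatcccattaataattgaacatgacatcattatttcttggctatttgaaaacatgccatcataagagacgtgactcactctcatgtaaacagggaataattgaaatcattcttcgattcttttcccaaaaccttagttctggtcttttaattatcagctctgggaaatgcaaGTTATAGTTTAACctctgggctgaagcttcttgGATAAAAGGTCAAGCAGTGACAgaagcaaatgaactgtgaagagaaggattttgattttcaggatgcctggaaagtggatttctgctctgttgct
Ugt2b38: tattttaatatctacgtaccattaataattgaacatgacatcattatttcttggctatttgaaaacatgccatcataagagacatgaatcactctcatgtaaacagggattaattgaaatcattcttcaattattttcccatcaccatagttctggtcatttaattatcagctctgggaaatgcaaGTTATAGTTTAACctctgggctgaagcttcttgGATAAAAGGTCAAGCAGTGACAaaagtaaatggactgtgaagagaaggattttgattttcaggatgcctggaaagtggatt
Ugt2b35: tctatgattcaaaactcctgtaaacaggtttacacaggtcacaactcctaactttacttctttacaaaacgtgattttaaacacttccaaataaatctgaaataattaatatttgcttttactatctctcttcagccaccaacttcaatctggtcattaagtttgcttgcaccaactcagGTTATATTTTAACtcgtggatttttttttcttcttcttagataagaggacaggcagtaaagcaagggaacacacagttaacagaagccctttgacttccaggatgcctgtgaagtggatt
Ugt2b34: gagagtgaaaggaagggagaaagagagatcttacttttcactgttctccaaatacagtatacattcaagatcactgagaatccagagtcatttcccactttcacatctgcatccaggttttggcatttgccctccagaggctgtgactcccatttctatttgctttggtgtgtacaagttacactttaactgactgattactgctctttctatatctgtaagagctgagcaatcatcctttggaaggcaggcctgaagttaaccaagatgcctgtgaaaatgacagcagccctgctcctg

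The 22-base run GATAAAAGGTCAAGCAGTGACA was found, on either strand, in 4 of 32851 promoter windows of the same length, which were those of Ugt2b5, Ugt2b36, Ugt2b37 and Ugt2b38. It began 28 bases before the start of Ugt2b5, 31 bases before those of Ugt2b36 and Ugt2b38, and 45 bases before that of Ugt2b37. The run holds AGGTCA, the half-site that many nuclear receptors bind. AGGTCA alone stood in 16.3% of all windows and in 5 of the 7 Ugt2b windows, the fifth being that of Ugt2b35, where it lay 215 bases before the start. The letters GTTATANTTTAAC stood in 6 of all windows, and 5 of these were Ugt2b5, Ugt2b35, Ugt2b36, Ugt2b37 and Ugt2b38. Both stretches were derived from these promoters, and a match is a description of the letters, not a site. The ATF and CRE core TGACGT was in none of the 7 windows and in 7.51% of all windows. The ER stress element, CCAAT followed after 9 bases by CCACG, was likewise in none of the 7 and in 0.119% of all.

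The windows were closest for Ugt2b37 and Ugt2b38, with 87.3% of aligned positions identical, followed by Ugt2b5 with Ugt2b38 at 84.2% and Ugt2b5 with Ugt2b37 at 76.5%. Ugt2b36 shared 61.4% to 63.5% with these 3 genes, and Ugt2b34 shared 50.7% to 55.3% with the 6 others. Genes this alike can share probe targets. The probe sequences were not used here, so cross-hybridisation among members was not tested.

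In WT colon 6 of the 7 genes were well above background on all 4 arrays. Since levels of different probes cannot be set against each other, each gene is compared with itself across groups. Ugt2b5, Ugt2b36 and Ugt2b37 were at or near background in both knockouts. Ugt2b38 was below detection on the DSS knockout arrays and well above background on the untreated ones. Under this scaling each of these 4 genes was at least 28.2-fold below WT. Ugt2b34 and Ugt2b35 stayed well above background on all 12 arrays and were on average 2.16 to 3.02 times lower in the knockouts under this scaling. Ugt2b1 was dim throughout and never above background in the knockouts.

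Ugt2b5 was at -8.39 and -8.32 in ATF6aKO DSS, -3.89 and -6.98 in ATF6aKO UT, -8.03 and -6.80 in ATF6bKO DSS, -7.70 and -6.05 in ATF6bKO UT, -1.61 and -1.02 in WT titled DSS, and 1.70 and 1.23 in WT titled UT. It was well above background on 1 of 4 ATF6aKO arrays (untreated replicate 1), 0 of 4 ATF6bKO arrays and 4 of 4 WT arrays. No knockout array reached the lowest WT array. With knockout arrays set no lower than their own limit of detection, Ugt2b5 was at least 48.0-fold lower in ATF6aKO and at least 51.9-fold lower in ATF6bKO than in WT. Such bounds hold for the scaling to the 75th percentile used here. They also hold only for that limit, the lowest level at which any probe of the array counted as well above background. A single probe can miss that mark at a higher level. Ugt2b37 did so at -5.32 on ATF6bKO DSS replicate 2, where the limit was -5.40. In the deposited value table, which has no detection limits, the difference of Ugt2b37 in ATF6bKO was -4.23, smaller than the bound given for it below.

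Ugt2b36, its neighbour on the chromosome, was at -8.31 and -8.22 in ATF6aKO DSS, -4.32 and -6.64 in ATF6aKO UT, -7.99 and -7.63 in ATF6bKO DSS, -7.70 and -6.95 in ATF6bKO UT, -2.48 and -1.91 in WT titled DSS, and 0.70 and 0.50 in WT titled UT. The same untreated ATF6aKO array was again the 1 knockout array well above background, against 4 of 4 WT arrays. Ugt2b36 was at least 28.2-fold lower in ATF6aKO and at least 28.4-fold lower in ATF6bKO than in WT, with no overlap.

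Ugt2b37 was at -6.60 and -7.12 in ATF6aKO DSS, -4.34 and -7.36 in ATF6aKO UT, -5.63 and -5.32 in ATF6bKO DSS, -5.56 and -5.80 in ATF6bKO UT, -2.13 and -1.81 in WT titled DSS, and 0.89 and 0.23 in WT titled UT. Here too untreated ATF6aKO replicate 1 stood out among the knockouts as the 1 array well above background. Ugt2b37 was at least 30.3-fold lower in ATF6aKO and at least 28.8-fold lower in ATF6bKO than in WT, and the arrays did not overlap.

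Ugt2b38 was at -8.42 and -6.93 in ATF6aKO DSS, -3.97 and -4.97 in ATF6aKO UT, -7.40 and -7.71 in ATF6bKO DSS, -5.13 and -4.63 in ATF6bKO UT, -1.74 and -1.15 in WT titled DSS, and 1.16 and 1.03 in WT titled UT. Unlike the previous 3 genes it was well above background on all 4 untreated knockout arrays, and on none of the 4 DSS knockout arrays. It was at least 34.1-fold lower in ATF6aKO and at least 33.8-fold lower in ATF6bKO than in WT.

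Ugt2b34 was at 1.01 and 1.46 in ATF6aKO DSS, 1.77 and 1.75 in ATF6aKO UT, 0.77 and 0.46 in ATF6bKO DSS, 1.76 and 1.31 in ATF6bKO UT, 2.30 and 2.47 in WT titled DSS, and 2.86 and 3.04 in WT titled UT. All 8 knockout arrays were below all 4 WT arrays. Its mean difference from WT was -1.17 in ATF6aKO (2.25-fold) and -1.59 in ATF6bKO (3.02-fold), against an SD between replicates of 0.18 and 0.21 within the groups compared. In the deposited value table these differences were smaller, at -0.51 in ATF6aKO and -0.94 in ATF6bKO. The median over all probes also differed there, from 0.135 to 0.21 in knockout columns and from -0.47 to -0.20 in WT columns.

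Ugt2b35 was at -3.35 and -1.94 in ATF6aKO DSS, -0.23 and -0.23 in ATF6aKO UT, -2.97 and -2.85 in ATF6bKO DSS, -0.36 and -0.58 in ATF6bKO UT, -0.89 and -1.13 in WT titled DSS, and 0.42 and 0.31 in WT titled UT. Untreated knockout arrays lay between the 2 WT groups, so the genotypes overlapped, with mean differences from WT of -1.11 in ATF6aKO and -1.36 in ATF6bKO, against -0.45 and -0.72 in the deposited value table. Ugt2b1 was at -8.40 and -8.33 in ATF6aKO DSS, -7.42 and -7.83 in ATF6aKO UT, -8.04 and -7.69 in ATF6bKO DSS, -7.29 and -7.09 in ATF6bKO UT, -5.00 and -7.93 in WT titled DSS, and -5.49 and -6.19 in WT titled UT. It was well above background on 0 of 8 knockout arrays and 3 of 4 WT arrays, and the detection limits allowed no fold.

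**Figure D1:**
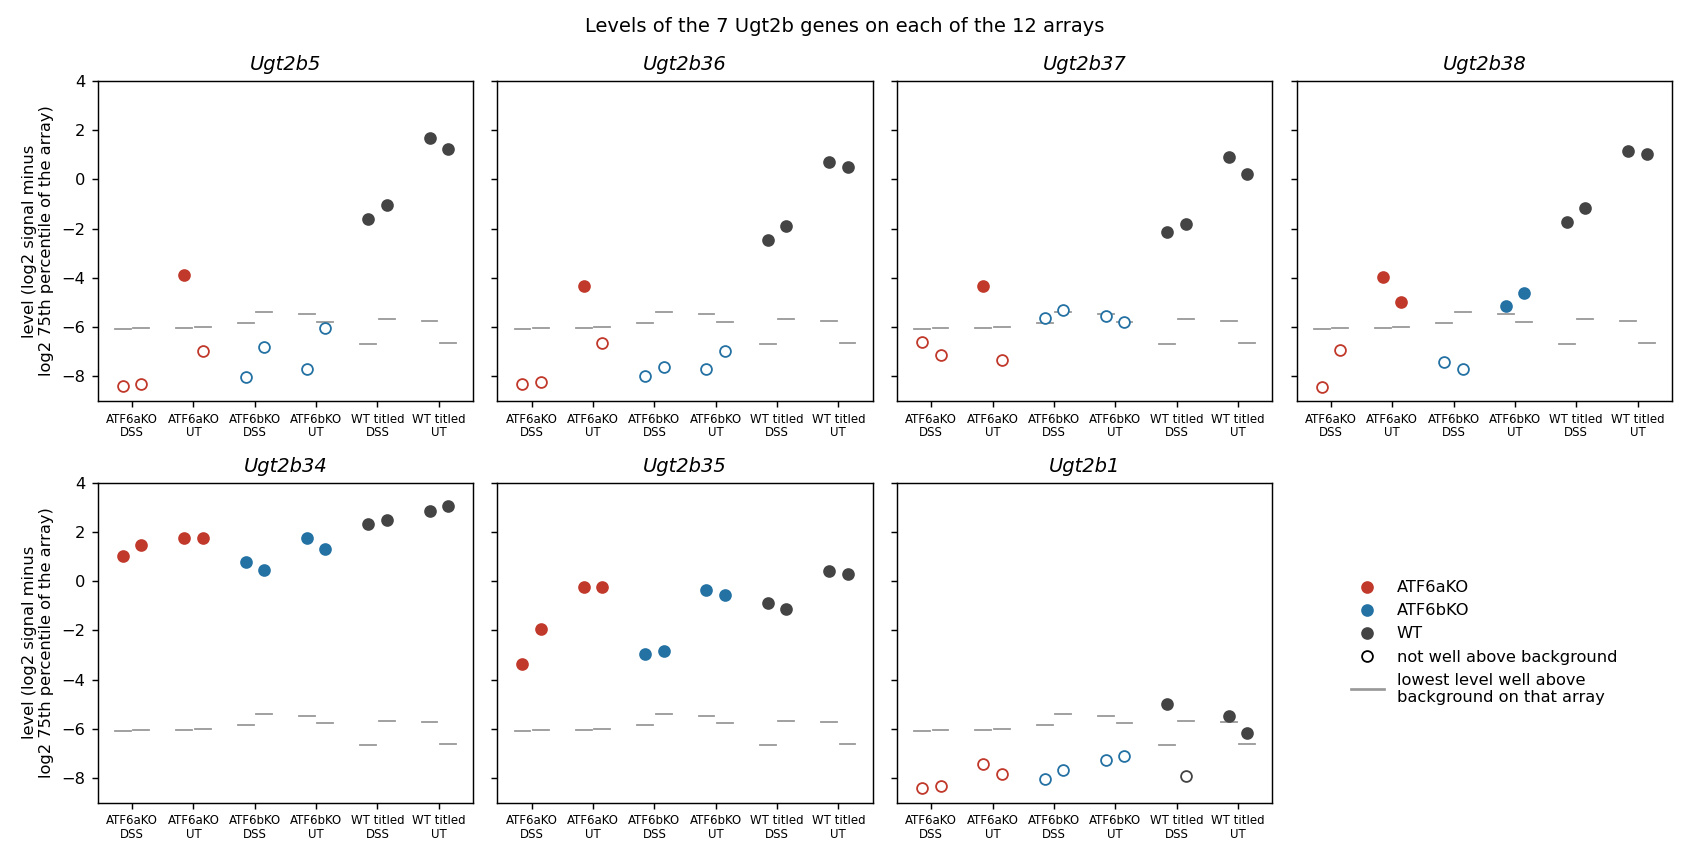
Level of each Ugt2b gene (log2 signal minus the log2 75th percentile of the array, y axis) on each of the 12 arrays, by group (x axis). Filled points were well above background, open points were not, and grey lines give the lowest level of any probe well above background on each array. In Ugt2b5, Ugt2b36, Ugt2b37 and Ugt2b38 every knockout point lies below every WT point, and most knockout points are open.

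Over the 7 genes, 5 had all 8 knockout arrays below all 4 WT arrays, as did 11.6% of all genes. The same 5 genes were counted for ATF6aKO alone, where 19.1% of all genes lay wholly below WT, and for ATF6bKO alone, where 15.1% did. With genes below detection at their bound and Ugt2b1, which gave no fold, left out, the median difference over 6 genes was -4.87 in ATF6aKO and -4.84 in ATF6bKO, beside measured medians of -0.07 and -0.02 over all genes. The share of genes well above background on all 4 WT arrays and on at most 1 of the 8 knockout arrays was 1.22%, or 284 genes, and Ugt2b5, Ugt2b36 and Ugt2b37 were 3 of them. A mean at least 3 log2 units below WT in both knockouts with no overlap was met by 42 of 23239 genes, 4 of which were Ugt2b5, Ugt2b36, Ugt2b37 and Ugt2b38. Under normexp background correction, which started from the median in place of the processed signal and added an offset of 50, the differences of Ugt2b5, Ugt2b36, Ugt2b37 and Ugt2b38 were smaller, at -3.32, -2.54, -2.38 and -3.07 in ATF6aKO and -2.96, -2.10, -1.87 and -2.73 in ATF6bKO, with the same direction. The shares of all genes are given as background to genes that were chosen on this comparison, and both comparisons share the WT arrays. Ugt2b1, Ugt2b5, Ugt2b36 and Ugt2b37 also passed the background filter only through WT, as no knockout group had both arrays well above background. Lower levels in the knockouts are therefore partly built in for these genes. Between the 2 knockouts all 7 genes overlapped, where 8.44% of all genes were wholly lower and 5.28% wholly higher in ATF6aKO than in ATF6bKO, and the mean difference, ATF6aKO minus ATF6bKO, was 0.42 for Ugt2b34 and 0.25 for Ugt2b35, the 2 genes above background on all arrays. In whole tissue, fewer cells of a type and less RNA per cell cannot be told apart.

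The difference had a shape along the chromosome. The 4 genes furthest below WT, Ugt2b36, Ugt2b5, Ugt2b37 and Ugt2b38, followed each other, broken by Ugt2a3, which was well above background on no array. On the side of Ugt2b34, the flanking gene Ythdc1, which encodes a reader of RNA methylation, differed from WT by -0.20 in ATF6aKO and -0.19 in ATF6bKO, and its arrays overlapped. On the other side lie 3 sulfotransferase genes, whose products add sulfate to many of the same substrates. Sult1b1 differed from WT by -0.76 and -0.66 with overlap and Sult1d1 by -2.22 and -2.08 without overlap, each in ATF6aKO and ATF6bKO in that order. Sult1e1, the estrogen sulfotransferase, went in the opposite direction. It was well above background on 4 of 4 arrays of each knockout, averaging -2.13 in ATF6aKO and -2.92 in ATF6bKO, and on 1 of 4 WT arrays, whose highest level was -5.46.

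**Figure D2:**
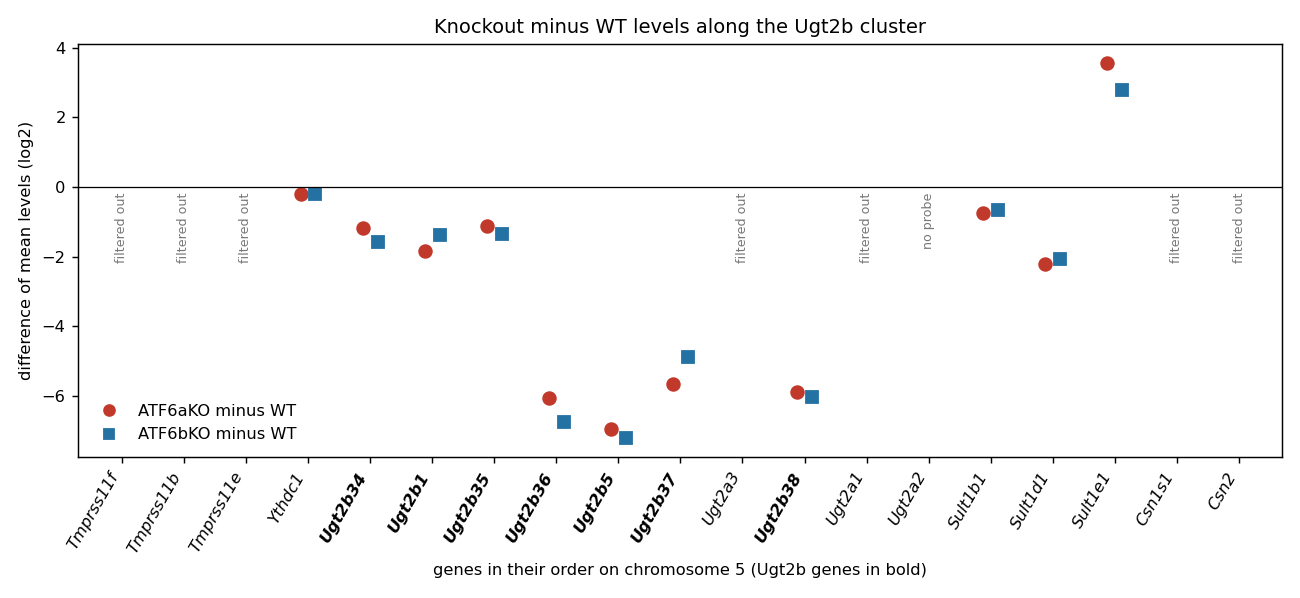
Knockout minus WT mean level (log2, y axis) for the genes of the Ugt2b region in their order on chromosome 5 (x axis, Ugt2b genes in bold), with circles for ATF6aKO and squares for ATF6bKO. Genes with no probe, or whose probes were filtered out because no group had both arrays well above background, are marked so. The 4 lowest pairs, near -5 to -7, are Ugt2b36, Ugt2b5, Ugt2b37 and Ugt2b38, whose knockout values were mostly below detection, while Sult1e1 is above 0 in both knockouts.

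DSS against UT within a knockout did not enter the choice of genes and was tested with limma over all 23239 genes. Ugt2b35 fell with DSS in both knockouts, and Ugt2b38 fell to below detection in both. Ugt2b34 fell in ATF6bKO. Ugt2b5, Ugt2b36 and Ugt2b37 were mostly under the limit of detection on the untreated knockout arrays too, so a lower level with DSS was mostly not measurable.

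Over both knockouts with genotype as a term, DSS minus UT was -2.43 for Ugt2b35 (SE 0.28, 5.38-fold, limma adjusted p = 0.0023), and all 4 DSS arrays were below all 4 UT arrays. It was also past the threshold of 0.05 in ATF6aKO alone (-2.42, limma adjusted p = 0.0121) and in ATF6bKO alone (-2.44, limma adjusted p = 0.00498). Ugt2b38 was well above background on 0 of 4 DSS arrays and 4 of 4 UT arrays. Its measured change was -2.94 over both knockouts (limma adjusted p = 0.0029). Within genotypes it was -3.20 in ATF6aKO (limma adjusted p = 0.012) and -2.67 in ATF6bKO (limma adjusted p = 0.00997). With DSS arrays at their limit of detection, Ugt2b38 was at least 2.25-fold lower over both, 3.03-fold in ATF6aKO and 1.68-fold in ATF6bKO. The p-values belong to the measured levels, which include values below detection, and not to these bounds. Under normexp correction the Ugt2b38 calls were lost, with changes of -0.10 over both knockouts, -0.30 in ATF6aKO and 0.11 in ATF6bKO.

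Ugt2b34 changed by -0.72 over both knockouts (SE 0.17, 1.65-fold, limma adjusted p = 0.0203). Within genotypes it fell in ATF6bKO by 0.92 on the log2 scale (limma adjusted p = 0.0298), and in ATF6aKO its change of -0.53 did not pass (limma adjusted p = 0.198). The call over both knockouts was lost without ATF6aKO DSS replicate 1 (limma adjusted p = 0.0654) and without ATF6bKO DSS replicate 2 (limma adjusted p = 0.0544).

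Ugt2b36 passed in ATF6aKO on its measured change of -2.79 (limma adjusted p = 0.0354). Its bound there was 1.505-fold lower with DSS, which the p-value does not test. Untreated replicate 1 was its 1 array there above background. Without that array its change was -1.62, against -2.79 with it, and the call was lost (limma adjusted p = 0.0849). It was also lost without any 1 of the 6 DSS arrays, WT titled DSS included (limma adjusted p from 0.0546 to 0.192), with a replicate block (0.0622), with no filter (0.0666), without the WT arrays (0.0581), with only that genotype's arrays (0.1) and under normexp correction (-0.19, limma adjusted p = 0.583). Over both knockouts Ugt2b36 changed by -1.64, Ugt2b5 by -1.73 and Ugt2b37 by -0.40, and none passed (limma adjusted p = 0.0968, 0.16 and 0.656). Ugt2b1 passed over both knockouts, but it was below background on all 8 arrays and is not counted as a change.

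In ATF6aKO alone 3 of 7 genes fell, beside 3.46% of all genes, and in ATF6bKO alone 3 of 7 fell, beside 7.16%. Over both knockouts 4 of 7 fell, Ugt2b1 included, beside 15.8% of all genes. Ugt2b1, and Ugt2b36 in the ATF6aKO count, had passed the background filter only through WT arrays. No Ugt2b gene rose in any of these comparisons. Under normexp correction 2 fell over both knockouts and 1 rose, Ugt2b1, below background on all 8 arrays (0.27, limma adjusted p = 0.0376). Single arrays decided the count in ATF6aKO. It was 0 of 7 without untreated replicate 1, 1 of 7 without DSS replicate 1 and 4 of 7 without untreated replicate 2, when Ugt2b5 and Ugt2b37 passed. The loss took in Ugt2b35, whose change in ATF6aKO alone was -2.41 without untreated replicate 1 (limma adjusted p = 0.0685) and -2.42 without untreated replicate 2 (limma adjusted p = 0.0711). In ATF6bKO the count was 1 of 7 without DSS replicate 2, when Ugt2b35 remained. There Ugt2b38 also lost its call without untreated replicate 2 (limma adjusted p = 0.053), and Ugt2b34 lost it when any 1 of 5 arrays was left out (limma adjusted p from 0.0506 to 0.188). Ugt2b35 kept its call over both knockouts in every alternative run.

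The difference in DSS response between the knockouts, ATF6aKO minus ATF6bKO, passed the limma threshold for 0 of 23239 genes, while 1855 had an unadjusted p under 0.05. Without ATF6bKO DSS replicate 1 it passed for 83 genes, none of them a Ugt2b gene. Among the 7 genes it ran from -2.38 (SE 1.29) for Ugt2b5 to 0.40 (SE 0.32) for Ugt2b34. It was 0.03 (SE 0.53) for Ugt2b35. For Ugt2b36 it was -2.30 (SE 0.88, limma adjusted p = 0.559), and that value rests on the single untreated ATF6aKO array above background.

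**Figure D3:**
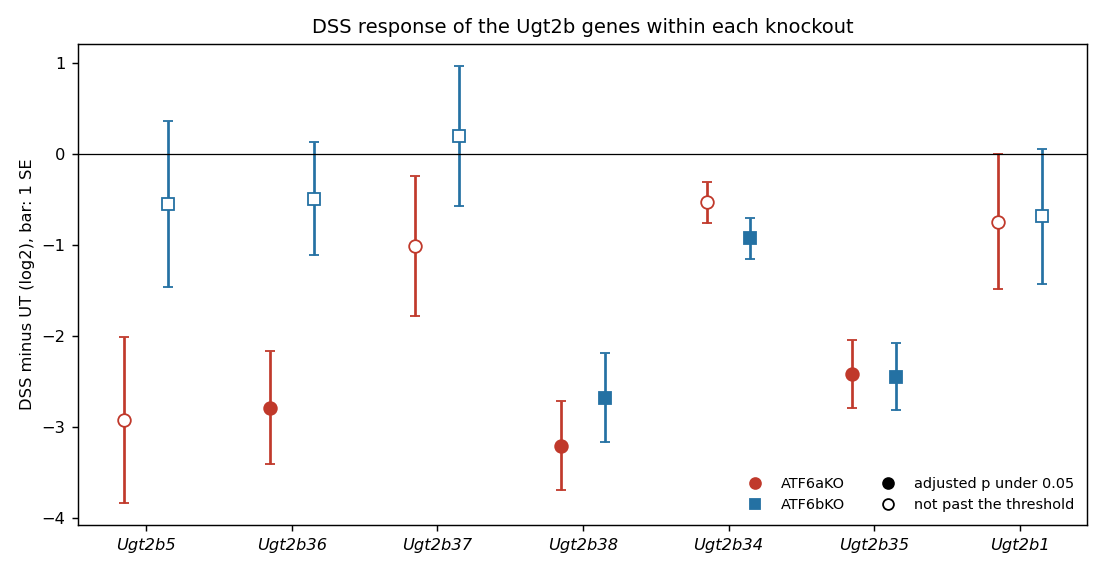
DSS minus UT (log2, y axis, bars 1 SE from limma) for each Ugt2b gene (x axis) within ATF6aKO (circles) and ATF6bKO (squares). Filled symbols had an adjusted p under 0.05. Ugt2b35 lies near -2.4 in both knockouts, and Ugt2b38 is filled in both, although its DSS arrays were all below detection.

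Within WT the 2 groups also differed. Titled DSS minus titled UT was -2.78 for Ugt2b5, -2.79 for Ugt2b36, -2.53 for Ugt2b37, -2.54 for Ugt2b38 and -1.38 for Ugt2b35, and these 5 passed (limma adjusted p from 0.00765 to 0.047), beside 17.0% of all genes that were lower. Ugt2b34, at -0.56, did not pass (limma adjusted p = 0.0861). If the treatment labels rather than the titles hold, each of these signs turns, and the WT mice given DSS had the higher levels. Single arrays decided the calls of the 5 genes that passed. Without WT titled DSS replicate 1 each of the 5 lost its call, while Ugt2b1 changed by -2.09, against -0.62 with all arrays. Some of the 5 also lost it without any other WT array or any 1 of the knockout DSS arrays, which share the spread.

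The 7 genes did not all move alike from array to array. Across the 8 knockout arrays Pearson's r was 0.97 for Ugt2b35 with Ugt2b38 and 0.96 for Ugt2b5 with Ugt2b36, and it was -0.11 for Ugt2b34 with Ugt2b37. These arrays share slides and treatment groups, and several of the levels are below detection, so the values only describe the pattern. The named genes whose levels followed the mean of the 7 most closely over all 12 arrays were Fabp2 (r = 0.99), Slc13a1 (r = 0.98), Tekt1 (r = 0.98), Sass6 (r = 0.98), Azgp1 (r = 0.98), Rgs17 (r = 0.98), Sct (r = 0.97) and Sytl4 (r = 0.97); all 12 arrays share the split between knockouts and WT. Fabp2, a fatty acid binding protein of enterocytes, averaged 4.25 ± 0.96 in ATF6aKO, 3.98 ± 0.35 in ATF6bKO and 7.62 ± 1.17 in WT (SD, n = 4 arrays each). Slc13a1, a sulfate transporter, averaged -5.47 ± 1.66 in ATF6aKO, -5.97 ± 1.45 in ATF6bKO and -0.78 ± 1.36 in WT.

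Of 15 Ugt1a, Ugt2a, Ugt3a and Ugt8a genes, 8 had a probe and 3 passed the filter. Ugt1a6b, a member of the Ugt1a locus whose transcripts share their last exons, averaged 5.45 in ATF6aKO, 5.22 in ATF6bKO and 5.30 in WT, and its arrays overlapped. The 2 Ugt1a6b probes disagreed: the other ran from -6.42 to -4.37 in ATF6aKO (3 of 4 arrays well above background), -5.79 to -4.84 in ATF6bKO (2 of 4) and -4.32 to -2.92 in WT (4 of 4), so that all knockout arrays were below all WT arrays on it. Ugt1a1, the bilirubin-conjugating enzyme, averaged -5.02 in ATF6aKO, -5.25 in ATF6bKO and -3.11 in WT, differences of -1.92 with overlap and -2.14 without. It passed as lower with DSS over both knockouts (limma adjusted p = 0.0203), where 1 of 4 DSS arrays and 4 of 4 UT arrays were well above background. Ugt3a2 averaged -5.45, -5.59 and -5.01 in ATF6aKO, ATF6bKO and WT and overlapped.

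Among 10 genes that make, move or remove glucuronate, 3 were below WT without overlap in both knockouts, beside 11.6% of all genes, and 0 above, with medians of -0.44 in ATF6aKO and -0.60 in ATF6bKO. They were Ugp2, which makes UDP-glucose, and the nucleotide-sugar transporters Slc35d1 and Slc35d2. Ugdh, which oxidises UDP-glucose to UDP-glucuronate, averaged 3.93 in ATF6aKO, 3.87 in ATF6bKO and 5.50 in WT, with overlap in ATF6aKO. With DSS 3 of the 10 fell over both knockouts, beside 15.8% of all genes, with changes of -0.95 (SE 0.21) for Ugdh, -0.50 (SE 0.10) for the phosphoglucomutase gene Pgm2 and -0.43 (SE 0.11) for the transporter gene Slc35a3, and limma adjusted p of 0.0179, 0.0126 and 0.0297. Of 9 exporters, 2 were below WT in both knockouts, again beside 11.6%, Abcg2 at -1.21 and -1.65 and Abcc5 at -0.72 and -0.43, and 0 were above.

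Receptors and transcription factors known to act on glucuronosyltransferase genes were mixed. Of 12 receptors, 3 lay below WT and 2 above in both knockouts, beside 11.6% of all genes wholly below and 7.63% wholly above. Nr1h4, the bile acid receptor FXR, differed from WT by -1.30 in both ATF6aKO and ATF6bKO, and Nr1i3, the xenobiotic receptor CAR, by 1.60 in ATF6aKO and 3.59 in ATF6bKO. Of 14 intestinal and hepatic transcription factors, Cdx2, Gata4 and Hnf4g lay below WT in both knockouts, beside the same 11.6%, and 0 above. Gata4 passed the background filter only through WT, so a lower knockout level was partly built in for it. Hnf4a, which is known from liver to drive UGT promoters, overlapped between genotypes, with differences from WT of 0.22 in ATF6aKO and 0.07 in ATF6bKO. With DSS 6 of the 14 fell over both knockouts, beside 15.8% of all genes, among them Foxa2 with a change of -1.05 (SE 0.17, limma adjusted p = 0.0056) and Gata6 with -0.62 (SE 0.10, limma adjusted p = 0.0052).

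Some genes that mark position along the gut also differed between genotypes. The summed level of 9 small intestine markers ran from 4.16 to 5.74 in ATF6aKO, 4.18 to 4.77 in ATF6bKO and 6.57 to 8.97 in WT. Fabp2, the gene most like the members, made up 63.6% to 91.4% of the sum in ATF6aKO, 65.5% to 82.0% in ATF6bKO and 94.3% to 98.8% in WT. Signals of different probes were added here, so these are shares of signal and not of transcripts. The summed level of the 8 others was 2.20 to 2.71 in ATF6aKO, 2.29 to 2.85 in ATF6bKO and 2.39 to 2.56 in WT, with overlap. Of the 9, Fabp2, Sis, Apob and Slc5a1 were below WT without overlap in both knockouts, and Anpep was above. Of all genes 11.6% were wholly below and 7.63% wholly above. The summed level of 6 genes of distal hindgut position ran from 4.07 to 4.94 in ATF6aKO, 3.96 to 4.90 in ATF6bKO and 2.67 to 3.48 in WT. Hoxd10, Hoxd11 and Hoxd13 were the 3 above WT in both knockouts, beside 7.63% of all genes. Hoxd13 averaged 2.21 in ATF6aKO, 2.45 in ATF6bKO and -1.54 in WT. Summed pan-epithelial markers were close, at 10.44 to 10.91 in ATF6aKO, 10.63 to 10.92 in ATF6bKO and 10.37 to 10.71 in WT. The part of gut position in the Ugt2b difference was not tested, and the labels do not say which stretch of the colon was taken. Summed hepatocyte markers ranged from -0.16 to 0.61 in ATF6aKO, 0.09 to 0.39 in ATF6bKO and 0.30 to 1.501 in WT, and kidney markers from -2.83 to -2.33, -2.81 to -2.20 and -2.74 to -2.56, so that these lists overlapped between genotypes.

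**Figure D4:**
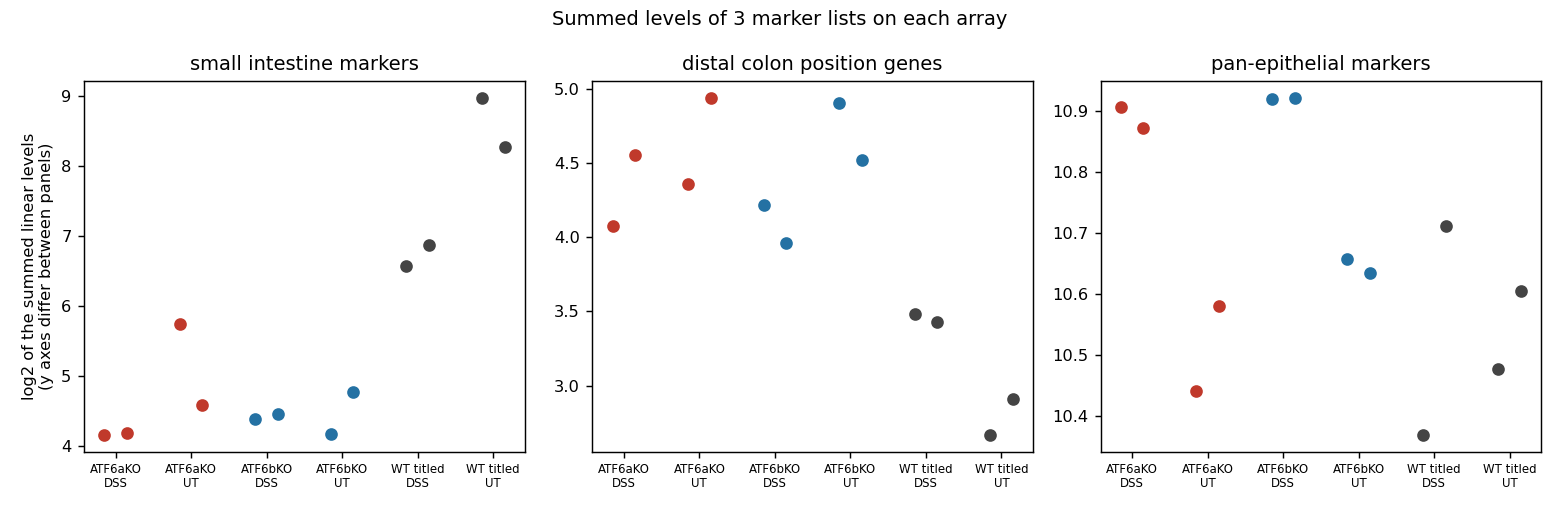
Summed level of 3 marker lists (log2 of the sum of linear levels, y axes differ between panels) on each of the 12 arrays, by group (x axis). All 8 knockout arrays lie below the 4 WT arrays for small intestine markers, a sum that is mostly Fabp2, and above them for distal colon position genes, and the genotypes overlap for pan-epithelial markers.

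Other cell markers moved with DSS in the knockouts. Of 8 leukocyte markers 7 rose and 0 fell over both knockouts, and their summed level was 6.44 to 7.19 on DSS arrays and 5.32 to 5.91 on UT arrays. Of 10 stromal and muscle markers 7 rose and 0 fell. Of 17 absorptive colonocyte markers 4 fell and 1 rose, and of 12 pan-epithelial markers 5 rose and 1 fell. Among all genes 13.2% rose and 15.8% fell. Summed pan-epithelial markers were 10.87 to 10.92 on DSS arrays and 10.44 to 10.66 on UT arrays. The part of a changed cell mixture was not tested.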

How the data were processed

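RNA of 12 colon samples was measured on Agilent 1-colour arrays. Per the file headers, the authors quantified each array with Agilent Feature Extraction (per the submitters' processing notes, 10.7.1.1), and the deposited intensity called processed signal is background-subtracted and detrended, with no scaling between arrays. The deposited value table holds log2 values that the authors centred on each probe, with scaling unknown, and in 8 of its 12 columns the values follow the array of another sample, so it served only as an alternative.

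Levels were log2 processed signals minus the log2 75th percentile of each array, without control and outlier spots. A probe was kept if well above background on both arrays of at least 1 of 6 groups, which left 30428 of 41174 probes. Accessions matched RefSeq symbols for 61.2% of probes. Each gene took its probe with the highest mean level. Tests used limma 3.58.1 in R 4.3.3 (lmFit and eBayes) over all 23239 genes or transcripts, with Benjamini-Hochberg adjustment, a threshold of 0.05 and 6 group means sharing 1 spread; the test over both knockouts used their 8 arrays with genotype as a term. The scripts were tested on simulated data with known changes. Lower bounds set each array not well above background at the higher of its own level and the lowest level well above background there.

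The members and all gene lists were chosen with earlier results of these data known. Named genes were the members, the targeted genes, from each list up to 4 with the largest DSS change over both knockouts past the threshold, and the 8 most like the members' mean; other genes were named after their values were seen. Replicate numbers did not pair the arrays, with correlations of deviations of 0.07 in ATF6aKO, -0.02 in ATF6bKO and 0.01 in WT. No mean signal was in the files used, so the normexp alternative (offset 50) used the median signal. Promoter windows were aligned with Biopython 1.88. No probe or protein sequences were used.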

Additional observations from a re-analysis of the deposited data

How the results depend on the processing

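The drop of Ugt2b5, Ugt2b36, Ugt2b37 and Ugt2b38 below WT kept its direction under every alternative run, and the fall of Ugt2b35 with DSS over both knockouts kept its call. Signal over background limits the rest: most knockout values of these 4 genes were below detection, and 2 arrays per group let single arrays decide calls. Under normexp correction the median of the 7 genes was -2.38 in ATF6aKO minus WT, -1.87 in ATF6bKO minus WT and -0.36 in ATF6aKO minus ATF6bKO, which was 0.25 in the analysis reported. Ugt2b1, below background in the knockouts, turned to 0.13 in ATF6aKO minus WT, 0.67 in ATF6bKO minus WT and 0.27 for DSS over both knockouts, and Ugt2b38 turned to 0.11 for DSS in ATF6bKO. That correction also gave 1 Ugt2b gene for DSS in ATF6aKO and 1793 genes in ATF6bKO.

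For DSS in ATF6aKO, 1473 genes were called in the analysis reported, 693 with no filter, 587 with a replicate block, 542 with only the arrays of that genotype and 2902 without the WT arrays, and the Ugt2b genes called were 3, against 1 with a replicate block and 0 with only that genotype. In ATF6bKO 2990 genes were called, against 1932 with a replicate block, 1753 with only that genotype and 4577 without the WT arrays. The difference in DSS response gave 0 genes, against 5 with quantile normalization, 1 with median scaling and 4 without the WT arrays. The replicate block left the Ugt2b counts at 3 in ATF6bKO, 4 over both knockouts and 5 in WT. With no filter, 3 Ugt2b genes were called in WT.

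With 1 array left out at a time, the genes called ranged from 176 to 3446 for DSS in ATF6aKO, 1083 to 5272 in ATF6bKO, 3844 to 6639 over both knockouts, 0 to 83 for the difference in response and 2962 to 10458 in WT. The Ugt2b genes called ranged from 0 to 4 in ATF6aKO, 1 to 3 in ATF6bKO, 3 to 4 over both and 1 to 5 in WT, and the ATF6aKO minus ATF6bKO median from -0.10 to 0.52. A lone array was assumed to vary like the other groups.

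The sign of the WT difference, titled DSS minus titled UT, turned in the deposited value table, to 2.71 for Ugt2b5, 1.31 for Ugt2b35, 2.73 for Ugt2b36, 2.47 for Ugt2b37 and 2.47 for Ugt2b38, as its WT columns hold the arrays of the other WT group. It turned by construction under the opposite reading of the labels, to 2.78, 1.38, 2.79, 2.53 and 2.54 for the same genes in that order. Where no cause is named above, the cause was not tested.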
